A study of Homo sapiens
Mus musculus with 2 samples.

Results

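IVA12 is a mouse B cell line, and its cells were compared here by how much RNA they held for 6 genes that are transcribed as a cell approaches division. The cells were chosen by measured values. A barcode was taken as an IVA12 cell when it had at least 2000 UMIs (unique molecular identifiers, each counting 1 captured transcript), when at least 90% of them came from mouse genes, and when the summed UMIs of 4 B lineage genes (Mzb1, Pou2af1, Tnfrsf17 and Derl3) were at least 2 and above the sum of 4 T lineage genes (Cd3e, Cd3d, Cd3g and Lck). The score of a cell was the percentage of its mouse UMIs on Mki67, Top2a, Ccnb1, Cdc20, Ube2c and Cenpf, and within each library the cells at or above the 75th percentile were compared with those at or below the 25th. The rule found 264 IVA12 cells among 1043 barcodes of at least 2000 UMIs and 6000 barcodes in all, and 134 of them were in the high-score or the low-score group.

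The cells came from a benchmark of single-cell methods in which 4 lymphocyte lines were mixed in equal numbers: Jurkat and TALL-104 from humans, and the mouse lines IVA12 and EL4, the latter a T cell line. The 2 Drop-seq libraries analysed were made with the Dolomite scRNA-Seq system, 1 from cells loaded at 150 cells per µl (the 150 library, 2398956 UMIs in 2000 barcodes) and 1 at 300 cells per µl (the 300 library, 8707135 UMIs in 4000 barcodes). No treatment, sorting or synchronisation of the cells is described, so the contrast is between untreated cells of 1 line.

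A cycling cell copies its DNA in S phase, passes through G2 and divides in mitosis, and many genes for the division machinery are transcribed in a wave that starts in S phase and is highest in G2 and mitosis. Ki-67, encoded by Mki67, coats mitotic chromosomes, Top2a encodes the topoisomerase that untangles replicated DNA, and Cenpf encodes a kinetochore-associated protein. Ccnb1 encodes cyclin B1, the partner of the kinase that drives entry into mitosis, while Cdc20 and Ube2c serve the anaphase-promoting complex, the ubiquitin ligase that destroys cyclin B1 and ends mitosis. Mki67 and Top2a RNA is also made in S phase, so the score does not single out cells in mitosis, and the groups are called high-score and low-score below.

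In the 150 library, 8 of 30 IVA12 cells were high-score, 8 were low-score and 14 lay between. Of 234 cells in the 300 library, 59, 59 and 116 fell into these groups. The score ran without a gap from one group to the next. In the 150 library the highest low-score cell stood at 0.0184% beside 0.0190% in the lowest middle cell, and the lowest high-score cell stood at 0.234% beside 0.215% in the highest middle cell. The same neighbours in the 300 library were 0.0554% beside 0.0612%, and 0.301% beside 0.295%. The upper limit was therefore set at different scores in the libraries, 0.229% and 0.299% of mouse UMIs, because it was taken within each.

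The 8 high-score cells in the 150 library had scores of 0.234%, 0.250%, 0.265%, 0.295%, 0.316%, 0.338%, 0.339% and 0.345%. The 59 high-score cells in the 300 library ranged from 0.301% to 1.08%, with a median of 0.409%. In the low-score group the medians were 0.0128% and 0.0290%, and 2 of 8 and 9 of 59 cells had no UMI of any of the 6 genes. All 6 genes were found together in 6 of 8 and 39 of 59 high-score cells, and in 0 of 8 and 0 of 59 low-score cells. In the low-score group 3 of 8 and 34 of 59 cells held at most 1 of the 6.

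**Figure D1:**
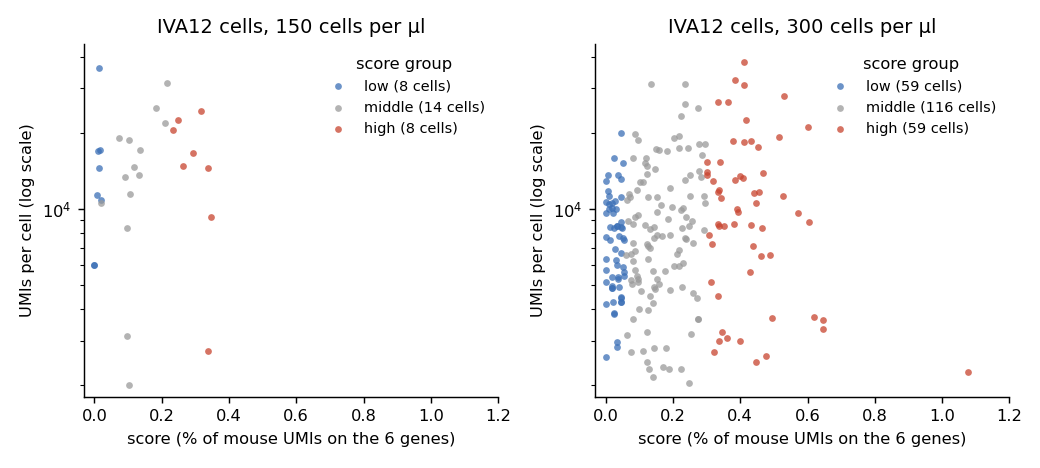
Each point is 1 IVA12 cell, with its score in percent of mouse UMIs on the horizontal axis and its UMIs on a logarithmic vertical axis, in a panel for each library, coloured by score group. The scores form a continuous spread with no gap at either limit, and the cell with the highest score, 1.08%, had 2257 UMIs.

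High-score cells held more UMIs than low-score cells in both libraries. The median was 15742 UMIs in high-score, 14133 in middle and 12942 in low-score cells in the 150 library. It was 10008, 7860 and 7506 UMIs in the 300 library. The ratio of the medians, high over low, was 1.22 and 1.33, and the ranges overlapped widely, from 2257 to 38180 UMIs in high-score and from 2593 to 20038 in low-score cells in the 300 library. No test was made, since cells of 1 library are not replicates. When each cell was drawn down to 2000 mouse UMIs, the number of genes found differed little: the medians were 1202 in high-score and 1176 in low-score cells in the 150 library, and 1246 and 1217 in the 300 library. The score itself rests on few UMIs in cells of low depth, and with the score taken on cells drawn down to 2000 UMIs, the mean of the ratios went from 1.27 to 1.10.

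The 6 score genes chose the cells, so their levels are a description and were not tested. Levels are CPM, counts of UMIs scaled to 1000000 mouse UMIs of the summed cells. Together the 6 genes stood at 2870 CPM in high-score and 127 in low-score cells in the 150 library, and at 4156 and 276 in the 300 library. The middle cells lay between, at 1381 and 1763 CPM. Top2a had the most UMIs of the 6 in high-score cells of both libraries, with 1247 and 1405 CPM, ahead of Mki67 with 815 and 1125.

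The genes of cyclin B1 and of the anaphase-promoting complex had fewer UMIs. In high-score cells Ube2c stood at 272 and 613 CPM, Ccnb1 at 240 and 449, Cdc20 at 152 and 296, and Cenpf at 144 and 268. Mki67 was the score gene found in most low-score cells. It was found in 4 of 8 and 32 of 59 low-score cells, at 59.0 and 108 CPM, and made up 39.1% of the score UMIs of the low-score group in the 300 library against 27.1% in the high-score group. Cenpf was at the other end, with 0 and 5 UMIs in the low-score group. The same mouse genes were also met in human cells of the mixture, which can take up free mouse RNA: Mki67 in 6.10% and 15.2% and Cenpf in 2.44% and 2.13% of 82 and 282 human cells, which had medians of 6411 and 3952 UMIs, of which 112 and 144 were from mouse genes. In low-score IVA12 cells, with medians of 12942 and 7506 UMIs, the shares for Cenpf were 0% and 6.78%, on 0 and 5 UMIs. As a share of mouse UMIs, the 6 genes made up 0.179% and 0.261% in the human cells. They made up 0.301% and 0.310% in barcodes of 200 to 600 UMIs, and 0.0127% and 0.0276% in low-score IVA12 cells. How much free RNA adds to the score of a cell was not tested.

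**Figure D2:**
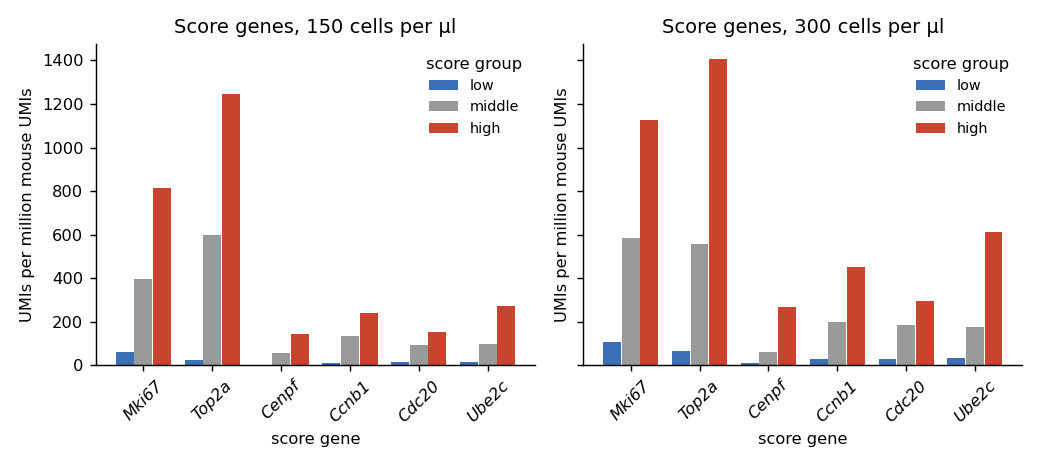
Bars give the level of each score gene in CPM, summed over the low-score, middle and high-score IVA12 cells of each library, on axes that start at 0. Every gene stands highest in the high-score group, as the choice of cells requires, and Top2a and Mki67 lead, at 1405 and 1125 CPM in the 300 library.

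So that no tested gene chose its own cells, the cells were chosen again on 3 of the 6 genes. The other 3 were tested by edgeR's quasi-likelihood test on the UMIs summed within each group of a library, blocking on the library. Each such test used the 4 sums and all mouse genes with at least 30 UMIs. When Mki67, Top2a and Cenpf chose the cells, 188 of 5996 genes (3.14%) were higher in high-score cells at an adjusted p under 0.05, and Ccnb1, Cdc20 and Ube2c were among them. Ube2c stood at 174 and 537 CPM in high-score against 16.9 and 51.8 in low-score cells, in the 150 and the 300 library. Its log2 fold change was 3.35 ± 0.37 (SE; edgeR adjusted p = 4.17e-17). Ccnb1 stood at 219 and 402 against 8.43 and 67.6 CPM, a log2 fold change of 2.81 ± 0.35 (edgeR adjusted p = 5.59e-13). The smallest change was that of Cdc20, at 113 and 248 against 16.9 and 58.6 CPM, a log2 fold change of 2.15 ± 0.37 (edgeR adjusted p = 8.06e-07). The low-score values in the 150 library rest on 1 or 2 UMIs of each gene.

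In the reverse test Ccnb1, Cdc20 and Ube2c chose the cells, and 113 of 6133 genes (1.84%) were higher in the high-score group, Cenpf, Top2a and Mki67 among them. Cenpf stood at 161 and 241 CPM against 0 and 20.8. That was 11.6-fold in the 300 library and, against a floor of 3 UMIs, at least 4.93-fold in the 150 library. Its log2 fold change was 3.71 ± 0.48 (edgeR adjusted p = 4.99e-12). Top2a stood at 929 and 1181 CPM against 32.7 and 266, a log2 fold change of 2.71 ± 0.30 (edgeR adjusted p = 3.87e-16). Mki67 stood at 658 and 997 against 120 and 237, a log2 fold change of 2.17 ± 0.30 (edgeR adjusted p = 2.54e-10). In the 150 library the low-score sum held 0 UMIs of Cenpf, 3 of Top2a and 11 of Mki67. The 3 genes of each set were thus higher in cells picked by the other 3, in both libraries. Both sets had entered the score as genes transcribed when a cell approaches division. Their joint rise was therefore foreseeable, and the p-values describe how the score holds together, not an independent finding.

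Genes that the score did not use were then compared between the 134 high-score and low-score cells. Of 6072 mouse genes tested, 204 (3.36%) were higher and 70 (1.15%) were lower in high-score cells at an edgeR adjusted p under 0.05, and the median log2 fold change over all genes was -0.01. The fitted rises were larger than the fitted falls. Of the 204 genes that rose, 104 changed by more than 4-fold, against 17 of the 70 that fell. The medians were 2.08 and -1.46 on the log2 scale. The high-score sums held 125082 and 696769 mouse UMIs in the 150 and the 300 library, against 118561 and 463571 in the low-score sums. The part of these depths in the difference was not tested. All 204 rising genes were higher in the high-score cells of each library, and 61 of the 70 falling genes were lower in each. The calls were made on these same sums, so this is no independent check. Of the 204, 48 had 0 UMIs in the low-score sum of the 150 library and 2 in that of the 300 library. Fold changes fitted on sums of 0 are no bounds. Each group had 1 sum per library, which left 1 residual degree of freedom. The prior degrees of freedom of the fit were infinite, so each gene took its error from the trend over all genes. A gene's own spread between the libraries had no weight in its SE or p-value. DESeq2 called 45 genes higher (0.741%) and 2 lower (0.0329%), all 47 of which edgeR had called.

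**Figure D3:**
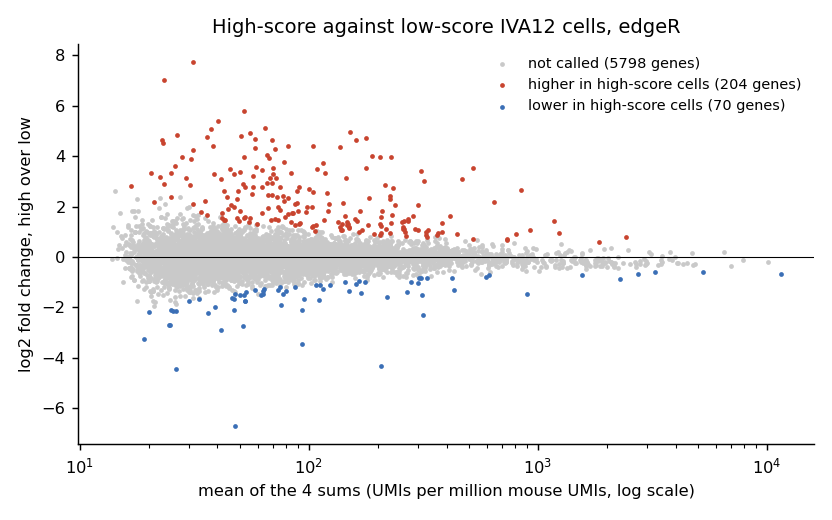
Each point is 1 of 6072 mouse genes, with the mean level of the 4 sums in CPM on a logarithmic horizontal axis and the log2 fold change, high-score over low-score, on the vertical axis; colours mark the 204 genes called higher and the 70 called lower. The called genes above 0 reach larger fitted changes than those below, with medians of 2.08 and -1.46. Some of the rises rest on low-score sums of 0 UMIs.

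Cell-cycle genes were followed as a group through the mouse gene pairs shipped with the scran package, which are given by Ensembl identifier. Each pair names a gene that is to be higher than its partner in a phase. A gene was taken as a marker of a phase when it was only ever the higher gene in that phase's pairs and was on no other phase's list. This gave 50 identifiers for G2/M, 101 for S and 57 for G1, none of them a score gene. Whether each marker peaks in its named phase was not tested, so the lists are not measures of the phases. Of the G2/M markers, 37 were tested, 15 rose, 1 fell and 21 did not pass, with a median log2 fold change of 0.81 and a range from -1.91 to 4.96. Rising G2/M markers were 40.5% of those tested, where 3.36% of all genes rose. Of the S markers, 67 were tested and 12 rose (17.9%), 0 fell and 55 did not pass, with a median of 0.04. Of the G1 markers, 38 were tested, 4 rose (10.5%), 3 fell (7.89%) and 31 did not pass, with a median of 0.06. The S and G1 medians were therefore close to that of all genes, while the largest rises were 7.03 among the S and 3.51 among the G1 markers.

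The summed G2/M markers stood higher at each step of the score group in both libraries. They took 0.222% of mouse UMIs in low-score, 0.441% in middle and 0.596% in high-score cells in the 150 library. The shares in the 300 library were 0.301%, 0.443% and 0.660%. In the 150 library no cell of one group reached the other: low-score cells ranged from 0.195% to 0.290% and high-score cells from 0.450% to 0.733%. The ranges of the 300 library met, from 0.117% to 0.568% and from 0.277% to 1.01%. The S markers differed less, with 0.423% in low-score and 0.556% in high-score cells in the 150 library, and 0.511% and 0.680% in the 300 library.

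For the G1 markers the order of the summed shares depended on the library, while that of the cell medians did not. Summed, the G1 markers took 0.553% in low-score and 0.605% in high-score cells in the 150 library, and 0.692% and 0.665% in the 300 library. The medians over cells were 0.517% in low-score and 0.604% in high-score cells in the 150 library. In the 300 library the median low-score cell, at 0.605%, also lay below the median high-score cell, at 0.672%. There 1 low-score cell reached 4.18%, and the order of the sums was not that of the medians.

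**Figure D4:**
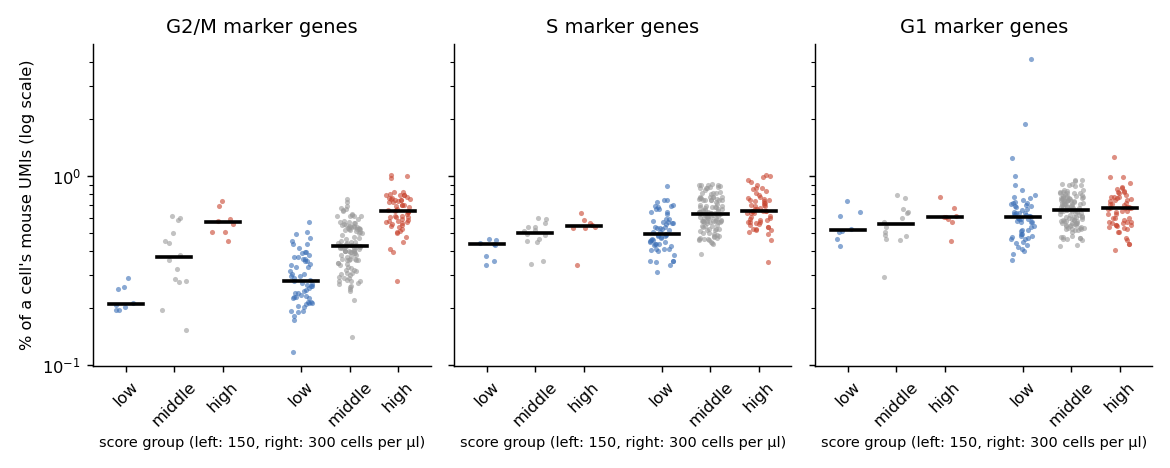
Points are IVA12 cells and black bars are medians over the cells of a group, with the percentage of a cell's mouse UMIs on the G2/M, S and G1 markers on a logarithmic vertical axis, by score group and library. The G2/M share climbs from low-score to high-score cells, with medians of 0.277% and 0.651% in the 300 library, while the G1 medians of 0.605% and 0.672% lie close together.

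A phase was also assigned to each cell by cyclone, the pair-based classifier of scran, after all pairs with a score gene were removed. Cyclone calls S when neither the G1 nor the G2/M score passes its limit, whatever the S score. All low-score cells were called G1, 8 of 8 and 59 of 59, and 0 of 59 called G2/M in the 300 library allows a share of up to 5.08% by the floor of 3 counts, and the exact 95% upper limit is 6.06%. In the 300 library, 33 of 59 high-score cells were called G2/M (55.9%, exact 95% binomial interval 42.4 to 68.8%), 17 were called S and 9 G1. The 8 high-score cells in the 150 library were called G1 in 5, S in 2 and G2/M in 1 case. With every cell drawn down to 2000 mouse UMIs the calls there were 2 G1, 3 S and 3 G2/M, and in the 300 library 14, 13 and 32. Thinned low-score cells were called G1 in 8 of 8 and 58 of 59 cases, the other one S.

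The underlying G2/M score, which runs from 0 to 1, had a median of 0.54 in high-score and 0 in low-score cells in the 300 library, and of 0.106 and 0 in the 150 library. After thinning the medians were 0.657 and 0.007 in the 300 library, and 0.398 and 0.0155 in the 150 library. After the random draw, high-score cells called G1 went from 5 to 2 in the 150 library, which had the deeper cells. In the 300 library they went from 9 to 14. The part of depth in these calls was not tested. The classifier was trained on other mouse cells, and intervals cover counting error only. The S score had medians of 0.1 in high-score and 0.177 in low-score cells in the 300 library, and of 0.106 and 0.199 in the 150 library. The cells called S are thus cells with no G1 or G2/M call, and were not shown to be in S phase. Since not all high-score cells were called G2/M, the group keeps the name of its score.

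The B lineage genes that define IVA12 were found in both groups. Mzb1, which encodes an endoplasmic reticulum protein of B and plasma cells, stood at 1415 CPM in high-score and 1788 in low-score cells in the 150 library, and at 1563 and 1627 in the 300 library. The rule chose all IVA12 cells on Mzb1 and the other B lineage genes, so these levels are given with no test. Pou2af1, which encodes a B cell transcriptional coactivator, stood at 376 and 768 CPM in the 150 library and at 762 and 634 in the 300 library. The libraries differed in direction for Pou2af1, which was lower in high-score cells of the 150 library and higher in those of the 300 library. Tnfrsf17 and Derl3, plasma cell genes, were close to absent: Tnfrsf17 had 2 and 11 UMIs over all IVA12 cells of the 150 and the 300 library, and Derl3 3 and 7.

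T lineage RNA was scarce in both groups, within a choice of cells that already kept it below the B sum. The 4 T genes stood together at 40.0 and 25.3 CPM in high-score and low-score cells in the 150 library, and at 12.9 and 15.1 in the 300 library. Of the 4, Cd3e was at 0 in both groups in the 150 library, and Lck at 0 in the high-score group of both libraries. The middle cells in the 300 library held more, 58.7 CPM with up to 14 T UMIs in 1 cell. Human UMIs were a median of 0.308% and 0.325% in high-score and low-score cells in the 150 library, and 0.344% and 0.373% in the 300 library. No doublet caller was used, and 2 IVA12 cells under 1 barcode cannot be seen by these measures.

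The tables name genes by identifier only, and outside the rule's genes no symbol was at hand, so the genes that changed most are given by identifier, 2 in each direction, among called genes with the same direction in both libraries and at least 50 UMIs. ENSMUSG00000002055 had the largest fitted rise by this rule. It had 5 UMIs in high-score, 6 in middle and 0 in low-score cells in the 150 library, and 59, 29 and 0 in the 300 library. In the 300 library its level in high-score cells was 84.7 CPM, at least 13.1-fold higher than in low-score cells against a floor of 3 UMIs. A UMI of it was found there in 32 of 59 high-score, 24 of 116 middle and 0 of 59 low-score cells, and no single cell held more than 6. Its edgeR adjusted p was 1.63e-09, and DESeq2 gave it no adjusted p. Its fitted log2 fold change of 7.73 rests on low-score sums of 0 and is no bound. It was 2.51 with a split at the median score, 2.60 with the score on thinned cells and 4.25 when Ccnb1, Cdc20 and Ube2c alone chose the cells, and passed in each (edgeR adjusted p = 1.33e-05, 2.19e-05 and 1.09e-05). Human cells had a UMI of it in 0% and 1.42% of cells.

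ENSMUSG00000026039 was the next. It had 10, 5 and 0 UMIs in high-score, middle and low-score cells in the 150 library, and 88, 54 and 1 in the 300 library. Its log2 fold change was 5.80 ± 0.74 (edgeR adjusted p = 1.07e-12), and it was 2.71 with a split at the median score and 3.05 with the score on thinned cells. In the 300 library 34 of 59 high-score cells had a UMI of it, against 1 of 59 low-score cells, so its UMIs were spread over most of the high-score group. The shares of human cells with a UMI of it were 1.22% and 1.06%. Middle cells were intermediate for both rising genes, as for the score itself.

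The genes that fell most were distributed in another way. ENSMUSG00000035042 had 0 UMIs in high-score and 11 in low-score cells in the 150 library, and 26 and 325 in the 300 library, where the levels were 37.3 and 701 CPM. Its log2 fold change was -4.31 ± 0.37 (edgeR adjusted p = 2.57e-27), and it was -2.83 in cells with a T sum of 0. Only 7 of 59 low-score cells in the 300 library had a UMI of it, and 1 of them held 185 of the 325. Middle cells did not lie between the groups there, with 5 UMIs in 116 cells, or 4.59 CPM, and a UMI was found in 0.355% of human cells. Without the cell of 185 UMIs the log2 fold change was -3.22 ± 0.38 (edgeR adjusted p = 1.2e-14), with 99 UMIs in the next cell.

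ENSMUSG00000041827 had 1 UMI in high-score and 3 in low-score cells in the 150 library, and 19 and 146 in the 300 library, with levels of 27.3 and 315 CPM there. The cells with a UMI of it differed less, at 14 of 59 high-score, 23 of 116 middle and 19 of 59 low-score cells in the 300 library. In the 150 library a UMI of it was found in 1 of 8 high-score and 1 of 8 low-score cells. Its log2 fold change was -3.45 ± 0.40 (edgeR adjusted p = 4.64e-15). The call was lost with DESeq2 (-3.20, adjusted p = 0.0626) and when Mki67, Top2a and Cenpf alone chose the cells (-1.03, edgeR adjusted p = 0.459), and the log2 fold change was -2.13 in cells with a T sum of 0. The log2 ratio in the 150 library alone was -1.66. The cell that held most of ENSMUSG00000035042 also held 92 of these 146 UMIs, and without it the log2 fold change of ENSMUSG00000041827 was -2.13 ± 0.45 (edgeR adjusted p = 0.00013). That cell had 20038 UMIs, a T sum of 1 and a B sum of 64. Both genes were found together in 5 of 59 low-score cells, in 0 of 59 high-score cells and in 1 of 116 middle cells in the 300 library. The 7 low-score cells with ENSMUSG00000035042 carried 125 of the 146 UMIs of ENSMUSG00000041827.

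This concentration in few cells was found for some falling genes and for no rising gene at the same limit. Of the 70 genes that fell, 7 had more than 25% of their UMIs over the 134 cells in 1 cell, and 4 had more than 50%, while none of the 204 that rose passed 25%. The falling genes had fewer UMIs, a median of 122.5 against 148.5. The share over all genes tested was not counted, so these counts are not read as a trait of falling genes. Without the cell of 185 UMIs edgeR called 206 genes higher and 69 lower. Of these, 197 and 64 were among the 204 and 70.

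EL4 cells, split by the same score in the same libraries, gave the comparison for what differs in IVA12. The EL4 groups had 11 and 11 cells in the 150 library and 84 and 84 in the 300 library. The contrast in the score itself, whose genes chose the cells, was wider in IVA12. The 6 genes were 22.7-fold and 15.1-fold higher in high-score than in low-score IVA12 cells in the 150 and the 300 library. In EL4 they were 8.50-fold and 7.58-fold higher, and low-score cells stood at 512 and 651 CPM against 127 and 276 in IVA12. The low-score values rest on 15 and 128 UMIs of the 6 genes in IVA12, and on 53 and 393 in EL4. In EL4 alone 124 of 6659 genes rose (1.86%) and 36 fell (0.541%). The genes that rose in both lines numbered 88, or 43.1% of the IVA12 and 71.0% of the EL4 list, and those that fell in both 2, or 2.86% and 5.56%.

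The difference between the lines was tested as an interaction over 8 sums. Of 8249 genes, 66 (0.800%) had a higher log2 fold change in IVA12 and 16 (0.194%) a lower one at an edgeR adjusted p under 0.05. Of the 66, 55 were among the genes that rose in IVA12, and 14 of these rose in EL4 as well. Among the 66, 11 were genes that fell in EL4. Of the 16, 11 were among those that fell in IVA12. Among the G2/M markers, 1 of 42 tested had a higher change in IVA12 and 0 a lower one, and the counts were 4 and 0 of 86 S markers and 8 and 0 of 45 G1 markers. For ENSMUSG00000002055 the log2 fold change in EL4 was 2.33 (edgeR adjusted p = 5.98e-06), and the difference of 5.55 ± 1.73 did not pass (edgeR adjusted p = 0.1). For ENSMUSG00000026039 the log2 fold change in EL4 was 1.89, and the difference of 3.89 ± 1.00 passed (edgeR adjusted p = 0.0162). For ENSMUSG00000035042 and ENSMUSG00000041827 EL4 had at most 1 and at most 2 UMIs in any sum, and the difference did not pass (edgeR adjusted p = 0.779 and 0.562). In the same test DESeq2 called 2 genes higher and 1 lower, and the part of the wider score contrast in the differences was not tested.

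**Figure D5:**
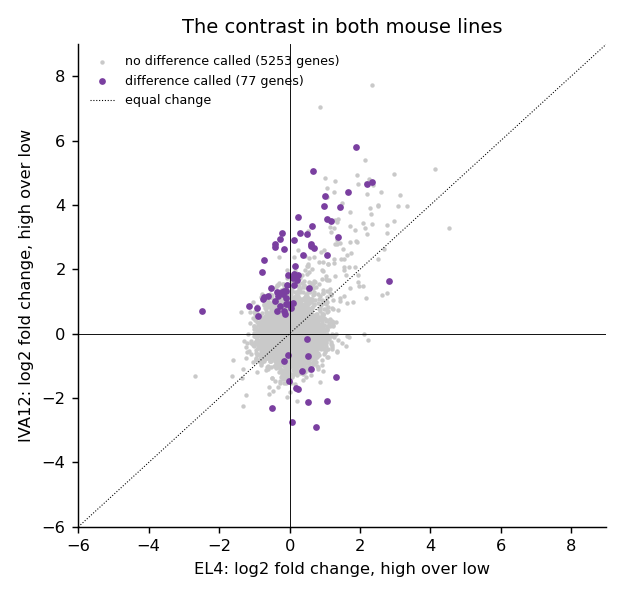
Each point is 1 of 5330 genes tested in both lines, with the log2 fold change, high-score over low-score, in EL4 cells on the horizontal axis and in IVA12 cells on the vertical axis; the dotted line marks equal change. The 77 genes for which a difference was called lie on both sides of the line, 61 with a higher log2 fold change in IVA12 and 16 with a lower one.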

How the data were processed

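The 2 Drop-seq libraries of the mixed lines were analysed. Per the submitters' processing notes and the study's methods, the authors aligned reads with STAR 2.4.2a to a combined hg19 and mm10 reference of Cell Ranger 1.2.0, and deposited raw UMI counts per gene and barcode. Whether these come from reads the study downsampled is not given in the sources used here. The counts were used as deposited. Cells are not replicates, so UMIs were summed per library and score group and tested with edgeR 4.0.16 (R 4.3.3): quasi-likelihood test, TMM, library as a block, at least 30 UMIs over the 4 sums, Benjamini-Hochberg adjusted p under 0.05, score genes left out. The study lists the same cell mixture for both libraries, so p-values cover no spread between separate mixtures. With the library as a block, they measure how far the change from low-score to high-score cells differed between these libraries. That spread includes which cells were captured, and the spread from cell to cell has no term of its own in the fit. The main IVA12 fit took the spread between libraries from the trend over genes, not from each gene. The script was tested on simulated sums. DESeq2 1.42.0 was an alternative. Fold changes are high over low. Phases came from cyclone in scran 1.30.0. Exact binomial intervals at 95% and floors of 3 UMIs cover counting error only. The score groups, gene lists and tests were chosen with earlier results of these data known. No table at hand paired mouse identifiers with symbols, so pathway lists by symbol could not be applied, and scran's markers were added after the data were seen. The text names the rule's genes and, by identifier, the 2 largest changes in each direction of each comparison. The 9 mouse barcodes at 300 cells per µl in neither line were left out. One barcode sequence occurred in both libraries, none among IVA12 cells.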

Additional observations from a re-analysis of the deposited data

Results flagged for a closer look

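The change from low-score to high-score cells differed between IVA12 and EL4 in the test of the interaction, with 66 genes called for a higher and 16 for a lower log2 fold change in IVA12. Among the called genes the highest differences were those of ENSMUSG00000028212 and ENSMUSG00000046179. For ENSMUSG00000028212 the difference was 5.05 ± 1.26 (edgeR adjusted p = 0.00985). It had 8 and 4 UMIs in high-score and low-score IVA12 cells in the 150 library and 16 and 7 in the 300 library, with most in middle cells (29 and 80 UMIs), while EL4 had 1 and 4, and 0 and 13. Its change within IVA12 did not pass (log2 fold change 0.69 ± 0.65, edgeR adjusted p = 0.789). For ENSMUSG00000046179 the difference was 4.62 ± 1.07 (edgeR adjusted p = 0.00369). It had 7 and 0, and 17 and 1 UMIs in IVA12, where its total was under the 30 needed for the test within the line, against 5 and 6, and 38 and 39 in EL4.

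Among the called genes the lowest differences were those of ENSMUSG00000045932, at -3.68 ± 0.81 (edgeR adjusted p = 0.00201), and ENSMUSG00000032715, at -3.19 ± 0.79 (edgeR adjusted p = 0.00834). Within IVA12 they fell, with log2 fold changes of -2.90 ± 0.51 and -2.09 ± 0.46, and in EL4 their changes of 0.76 and 1.06 did not pass (edgeR adjusted p = 0.776 and 0.604). ENSMUSG00000045932 had 0 and 5 UMIs in high-score and low-score IVA12 cells in the 150 library and 11 and 50 in the 300 library, where 13 of 59 low-score cells had a UMI of it. ENSMUSG00000032715 had 5 and 2, and 12 and 53 UMIs, so its direction was not the same in both libraries.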

How the results depend on the processing

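The number of genes called was the least stable value. Against 204 higher and 70 lower, DESeq2 called 45 and 2 (2355 genes had no adjusted p), a fit with no library block 102 and 10, the 90th and 10th percentiles of the score 79 and 18, and cells thinned before summing 28 and 9. Of the calls that could be tested after thinning, 131 of 131 kept their direction. The thinned UMIs are a part of the same UMIs of the same cells, so this is no independent check. With at least 5000 UMIs per cell 45 genes were lower; with the score over Mki67, Top2a and Cenpf 44 were lower; and with that over Ccnb1, Cdc20 and Ube2c 113 were higher and 40 lower. Against 66 and 16 for the difference from EL4, DESeq2 called 2 and 1 and no library block 5 and 0 (edgeR). The mean ratio of median UMIs went from 1.27 to 1.37 with a split at the median score and to 1.10 with the score on thinned cells, and was 1.22 to 1.33 without either library. The G2/M median of 0.81 became 1.60 with filterByExpr, 2.42 with the outer percentiles, 1.07 from 5000 UMIs and 2.29 after thinning, and stayed above 0 throughout. The G1 median of 0.06 became -0.035 with a T sum of 0 (-0.046 and -0.04 with the 3-gene scores) and -0.077 to 0.041 without either library. Counts have no value without 1 library, since 1 sum a group is left. The score subsets, scran lists and single-cell omissions were chosen after seeing the data. The library block pairs the high-score and low-score sums of each library, so the fit with no library block is the unpaired one. With 8 cells a group at 150 cells per µl, a gene needs high levels to be seen there.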
